A study of Mus musculus with 8 samples.

Results

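The genes described here encode subunits of the nuclear RNA polymerases and of Mediator. They were taken by symbol: every gene whose platform symbol begins with Polr1, Polr2 or Polr3, or is Med followed by a digit, measured by a probe set assigned to that gene alone. Where a gene had several such probe sets, the brightest on average was taken. The rule gave 56 genes of 18193, of which 25 were RNA polymerase subunit genes, 30 were Mediator subunit genes and 1, Med9os, was the transcript annotated opposite to Med9, which is no subunit. Polr2k and Polr2l were not analysed here because their probe sets are assigned to more than 1 gene. Polymerase subunit genes under other symbols (Znrd1, Cd3eap, Twistnb and Crcp) are not among the 56 and are given with the pathway lists.

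Striatal RNA came from 8 mice aged 22 months, all of the C57BL/6 X CBA F1 hybrid strain. The 4 mutants were CHL2 Q150/Q150 knock-in mice, in which a run of 150 CAG repeats taken from exon 1 of the human Huntington's disease gene sits in the animal's own Htt gene on both copies, so that every cell carries it. They were the females 141, 153 and 154 and the male 191. The 4 wild-type controls were the female 161 and the males 170, 180 and 200, and each mouse gave 1 array.

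RNA polymerase I makes the large ribosomal RNA, RNA polymerase II makes messenger RNA, and RNA polymerase III makes transfer RNA and other short RNAs. The enzymes share a set of small subunits, while the largest subunits, which form the catalytic cleft, belong to 1 enzyme each. Mediator is the coactivator complex that carries signals from DNA-bound transcription factors to RNA polymerase II; its head and middle contact the polymerase, its tail receives most activators, and a detachable kinase module, made of Med12, Med13, cyclin C and Cdk8 or their paralogues, regulates it. Loss of transcripts of medium spiny neurons, the output neurons of the striatum, is a long-known feature of Huntington's disease models, and mutant huntingtin has been reported to bind parts of the transcription machinery.

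Values are log2 levels after robust multi-array averaging (RMA), and a change is the mutant level less that of the wild type, with sex in the fit. A gene was said to rise or fall where limma gave a p adjusted over all genes (Benjamini-Hochberg) under 0.05. Arrays correlated at r = 0.989 to 0.996 within a group and 0.983 to 0.991 between groups. Wild-type 170 stood apart in its control probes: the 3' minus 5' difference of Gapdh was 1.37 there and 0.32 to 0.43 in the other 7 mice, and that of beta-actin 2.65 against 1.23 to 1.51. Htt fell by 0.67 (SE 0.090, adjusted p = 0.00101). Of 11 measured medium spiny neuron markers 11 fell, with a median change of -1.42, among them Ppp1r1b, the dopamine-regulated phosphatase inhibitor (change -1.01, SE 0.10, adjusted p = 0.000207), and the summed log2 level of the list was 124 to 126 in wild-type and 107 to 110 in mutant mice. In other cell type lists the astrocyte gene Gfap rose by 0.48 (SE 0.13, adjusted p = 0.0341), as 1 of 7 astrocyte markers. Its groups overlapped, with 9.18 in mutant 191 and 9.22 in wild-type 161. Only 2 of the 7 astrocyte markers had a change above 0, and their median change was -0.083. Of 6 oligodendrocyte markers 1 (Mobp) fell, as did 1 of 5 interneuron markers (Nos1). Calls were made for 0 of 7 microglial, 0 of 4 endothelial, 0 of 3 cortical, 0 of 3 choroid plexus and 0 of 2 blood markers. At an unadjusted p under 0.05 in limma these last counts were 1, 2, 2, 0 and 0. Some of these levels varied widely between mice. The cortical gene Slc17a7 was 4.59 (mutant 191) to 8.03 (mutant 154) in the mutants and 6.15 (wild-type 170) to 7.88 (wild-type 161) in the controls. The choroid plexus gene Ttr was 10.78 to 14.05 in the mutants and 11.63 to 13.92 in the controls. Mbp had a change of -0.13 (adjusted p = 0.415) and Aif1 one of -0.36 (adjusted p = 0.0509). In whole tissue a smaller share of a cell type and less RNA per cell cannot be told apart, and the part of these shifts in the values below was not tested.

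Several RNA polymerase subunit genes, led by the gene of the largest RNA polymerase II subunit, rose in mutant striatum. No Mediator subunit gene passed the test, but the median change was 0.14 in each family. The groups did not overlap for 7 of 25 polymerase genes (28%) and 9 of 30 Mediator genes (30%). An unadjusted p under 0.05 in limma was found for 9 and 8 of them, and a change above 0 for 23 and 22. The difference between the families was not tested. Of the 56 genes 7 rose (12.5%) and 0 fell, where 12.4% of all genes were called, 6.40% higher and 6.01% lower. The share called was therefore at the background. Among genes at or above the median level, which held 48 of the members and all 7 that rose, 19.8% were called, 10.2% higher. At an unadjusted p under 0.05 in limma, 16 members were higher and 1 lower, 17 of the 56. Of all 18193 genes 2548 were higher and 2155 lower at that p, 25.9% in either direction. The 7 genes were all polymerase genes: Polr2a, Polr2b, Polr2c, Polr2m, Polr2f, Polr3a and Polr3k. The change was above 0 for 45 of the 56 members, beside 51.2% of all genes. Among genes at or above the median level it was above 0 for 40 of the 48 members, beside 58.1% of all such genes. The median change was 0.14 over the members, 0.0052 over all genes and 0.049 over genes at or above the median level. The groups did not overlap for 16 members (28.6%), each higher in the mutants, beside 20.7% of all genes (11.4% higher and 9.27% lower). All 16 were among the 48 members at or above the median level, where 33.1% of all genes had no overlap. Without wild-type 170 the groups did not overlap for 20 members (35.7%), beside 25.3% of all genes.

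The count of calls changed with the mice in the fit. Each of mice 161 and 191 is the only animal of its sex in its group, so with sex in the fit the comparison without 161 sets mutant 191 alone against the male controls, and that without 191 sets the female mutants against 161 alone. Without 161, 0 of the 7 genes passed (4.75% of all genes did), and without 191 only Polr2a did (3.86% of all genes). The changes of the 7 genes were then 0.23 to 0.57 without 161 and 0.25 to 1.12 without 191, all above 0, beside 0.29 to 0.85 with all 8 mice, while their SEs, 0.077 to 0.14 with all mice, were 0.11 to 0.16 without either mouse. With sex also left out, 8 members passed without either mouse, of which 3 were among the 7 in each case, namely Polr2a, Polr2m and Polr2f. Without mutant 154 the count was 4, with Polr2b, Polr2f and Polr3k lost. Without wild-type 180 it was 3, and without wild-type 200 it was 3, with Polr2b, Polr2c, Polr2f and Polr3k lost in each case. Polr2f and Polr3k did not pass without mutant 141, nor Polr3k without wild-type 170. With sex left out and all 8 mice kept, 9 members passed: Polr2b, Polr3a and Polr3k dropped out, and Med12, Med21, Med31, Polr1a and Polr2h came in.

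**Figure D1:**
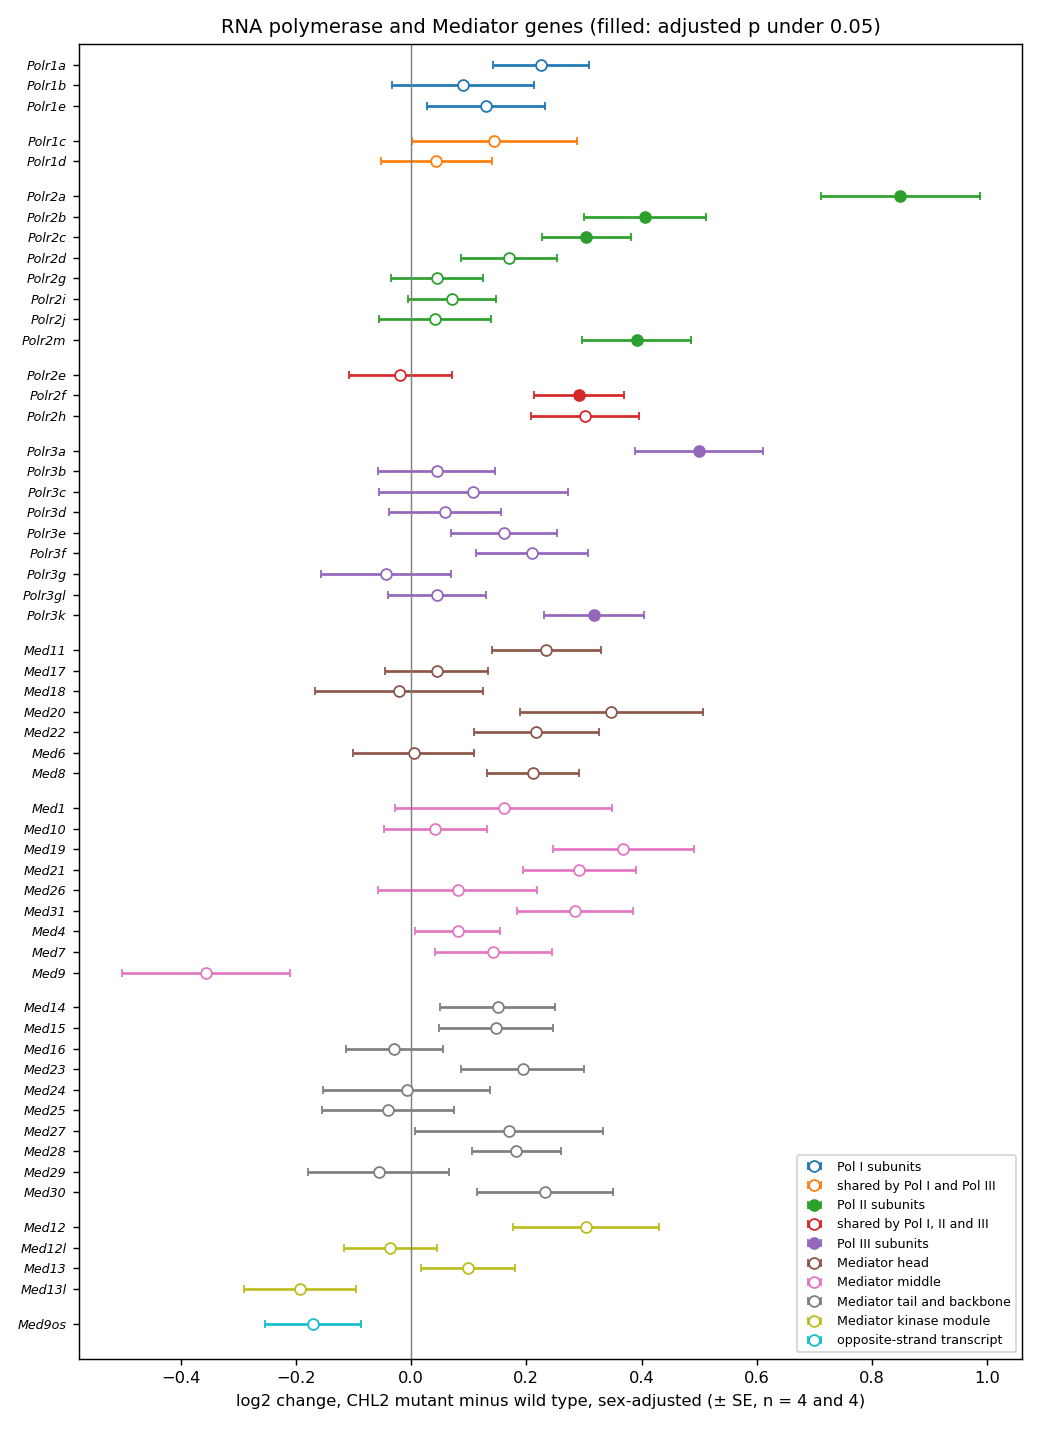
Log2 change (mutants less controls, sex in the fit) with its SE for each of the 56 genes (4 mice a group), grouped and coloured by complex and place in it, with filled points for genes past the threshold. The 7 filled points are all polymerase genes to the right of 0, Polr2a stands furthest out at 0.85, and Med9 lies furthest to the left at -0.36.

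Among the 8 genes for RNA polymerase II subunits and its bound factor Polr2m, 4 rose, 0 fell and all 8 had a change above 0 (median 0.24), beside 12.4% called and 51.2% above 0 over all genes. All 8 lay at or above the median level, where 19.8% of genes were called and 58.1% were above 0. Polr2a encodes the catalytic subunit whose long tail of repeats is phosphorylated as the enzyme moves from start to elongation. Its level was 7.49, 7.75, 7.40 and 7.41 in wild-type 161, 170, 180 and 200, and 8.72, 8.54, 8.58 and 8.10 in mutants 141, 153, 154 and 191. Every mutant lay above every control, and the male mutant was the lowest of the mutants. The means were 7.51 ± 0.17 (SD, n = 4) and 8.48 ± 0.27, and the change was 0.85 (SE 0.14, 1.80-fold, adjusted p = 0.00302). It was 1.12 without mutant 191 and 0.57 without wild-type 161 (adjusted p = 0.00692 and 0.0812). The interaction with sex had an unadjusted p = 0.0376 and an adjusted p = 0.969 in limma. The other probe set for Polr2a, at a mean level of 5.94, did not share the rise (change -0.086, SE 0.11, adjusted p = 0.749), and the mean of both gave a change of 0.38 (adjusted p = 0.0453).

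Polr2b encodes the second largest subunit, which closes the cleft over the DNA with the product of Polr2a. Its level was 9.28, 9.77, 9.45 and 9.45 in wild-type 161, 170, 180 and 200, and 9.52, 9.67, 9.73 and 10.02 in mutants 141, 153, 154 and 191. The groups overlapped through wild-type 170, which lay above 3 of the 4 mutants. The change was 0.41 (SE 0.11, 1.33-fold, adjusted p = 0.0311), but only 0.24 without sex in the fit (adjusted p = 0.229). Polr2c, a subunit of the assembly platform of the enzyme, was 8.78, 8.79, 8.83 and 8.79 in the controls and 8.97, 9.06, 9.05 and 9.16 in the mutants, in the same order of mice. The controls lay close together, all below the lowest mutant, and the change was 0.30 (SE 0.077, 1.23-fold, adjusted p = 0.0270). Polr2m encodes a protein that binds RNA polymerase II and keeps it dependent on Mediator. It was 9.39, 9.31, 9.43 and 9.31 in the controls and 9.81, 9.98, 9.68 and 9.71 in the mutants. These groups did not overlap either, and the change was 0.39 (SE 0.095, 1.31-fold, adjusted p = 0.0223). The genes of 4 smaller subunits, Polr2d, Polr2g, Polr2i and Polr2j, had changes of 0.042 to 0.17 with adjusted p of 0.236 to 0.847.

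Of 3 measured genes for subunits common to RNA polymerases I, II and III, Polr2f rose, where 12.4% of all genes were called. It was 8.19, 8.12, 8.06 and 8.14 in wild-type 161, 170, 180 and 200 and 8.58, 8.52, 8.52 and 8.34 in mutants 141, 153, 154 and 191, a change of 0.29 (SE 0.078, 1.22-fold, adjusted p = 0.0342) with no overlap. Its second probe set, at a mean of 6.72, had a change of 0.016 (adjusted p = 0.975), and on the mean of both the call was lost (change 0.15, adjusted p = 0.406). Polr2h was 7.28 to 7.36 in the controls and 7.40 to 7.71 in the mutants, without overlap, and did not pass (change 0.30, SE 0.094, adjusted p = 0.0624). Polr2e had a change of -0.018 (adjusted p = 0.932).

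**Figure D2:**
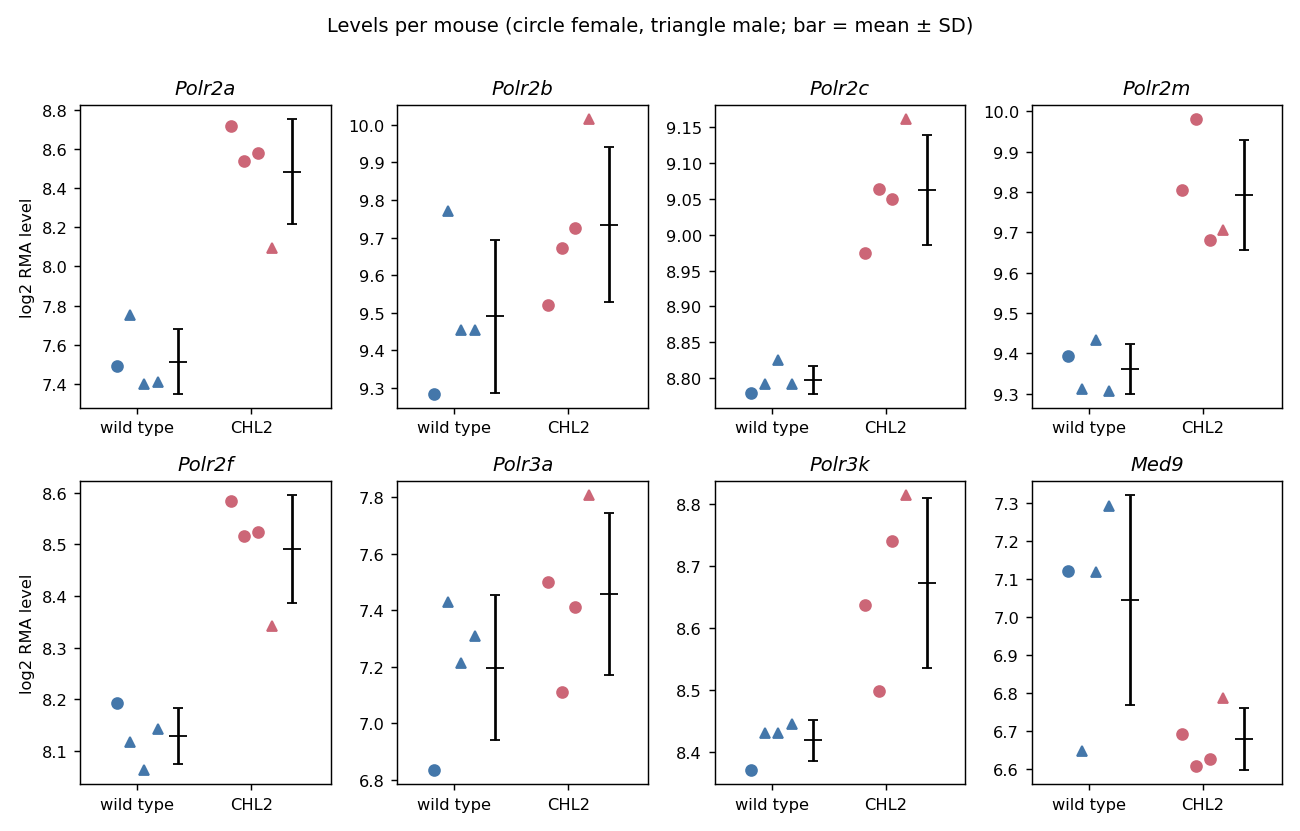
Log2 RMA level of Polr2a, Polr2b, Polr2c, Polr2m, Polr2f, Polr3a, Polr3k and Med9 in each mouse, wild type in blue and CHL2 mutant in red, circles for females and triangles for males, with the group mean and SD (n = 4) beside the points; each panel has its own axis. The groups are separate for Polr2a, Polr2c, Polr2m, Polr2f and Polr3k and overlap for Polr2b, Polr3a and Med9.

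Of 9 genes for subunits of RNA polymerase III alone, 2 rose and 0 fell (median change 0.11). Calls were made for 12.4% of all genes and 19.8% of those at or above the median level. Polr3a encodes the largest, catalytic subunit of RNA polymerase III. It was 6.83, 7.43, 7.21 and 7.31 in wild-type 161, 170, 180 and 200 and 7.50, 7.11, 7.41 and 7.81 in mutants 141, 153, 154 and 191. The groups overlapped, with mutant 153 below 3 of the 4 controls. The change of 0.50 (SE 0.11, 1.41-fold, adjusted p = 0.0147) rested on the sex term: without it the change was 0.26 (adjusted p = 0.311), and within each sex the mutants lay on the higher side, by 0.51 without mutant 191 and 0.49 without wild-type 161. A second probe set, at a mean of 7.05, also rose (change 0.35, adjusted p = 0.0449 over all probe sets).

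Polr3k encodes a small subunit that helps the enzyme cleave RNA and end transcription. It was 8.37, 8.43, 8.43 and 8.45 in wild-type 161, 170, 180 and 200 and 8.64, 8.50, 8.74 and 8.81 in mutants 141, 153, 154 and 191. The controls lay close together and below all mutants, and the change was 0.32 (SE 0.087, 1.25-fold, adjusted p = 0.0392). Of its 6 probe sets, 2 dimmer ones had larger changes, 0.67 (SE 0.085, adjusted p = 0.00140) and 0.53 (SE 0.13, adjusted p = 0.0395), each tested over all probe sets. The probe set used had an adjusted p of 0.0632 in that test. Polr3f, whose gene product helps recruit the enzyme to its promoters, had a change of 0.21 (SE 0.097, adjusted p = 0.206), and 1 of its 5 probe sets passed on its own (change 0.39, adjusted p = 0.0416). Polr3b, Polr3c, Polr3d and Polr3e had changes of 0.044 to 0.16, none past the threshold.

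Polr3g and Polr3gl encode alternative versions of 1 subunit, of which Polr3g is known from stem and tumour cells and Polr3gl from most tissues. Polr3g was 4.94 to 5.43 in the controls and 5.01 to 5.10 in the mutants (change -0.044, SE 0.11, adjusted p = 0.865). Polr3gl was 6.28 to 6.43 in the controls and 6.35 to 6.53 in the mutants (change 0.045, SE 0.085, adjusted p = 0.808). Neither gene differed beyond the spread of the mice.

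RNA polymerase I genes with a Polr1 symbol gave 0 calls among 3 genes of its own and 2 shared with RNA polymerase III. Over all genes 12.4% were called. At an unadjusted p under 0.05 in limma there was 1 among these RNA polymerase I genes, beside 25.9% of all genes. That gene was Polr1a, which encodes the catalytic subunit of RNA polymerase I. It was 6.63, 6.53, 6.48 and 6.58 in wild-type 161, 170, 180 and 200 and 6.75, 6.89, 6.73 and 6.81 in mutants 141, 153, 154 and 191. The groups did not overlap, and the change was 0.23 (SE 0.083, adjusted p = 0.113, or 0.0413 without sex in the fit). On the mean of its 5 probe sets the Polr1a change was 0.092 (adjusted p = 0.544). Polr1b, Polr1c, Polr1d and Polr1e had changes of 0.044 to 0.14.

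**Figure D3:**
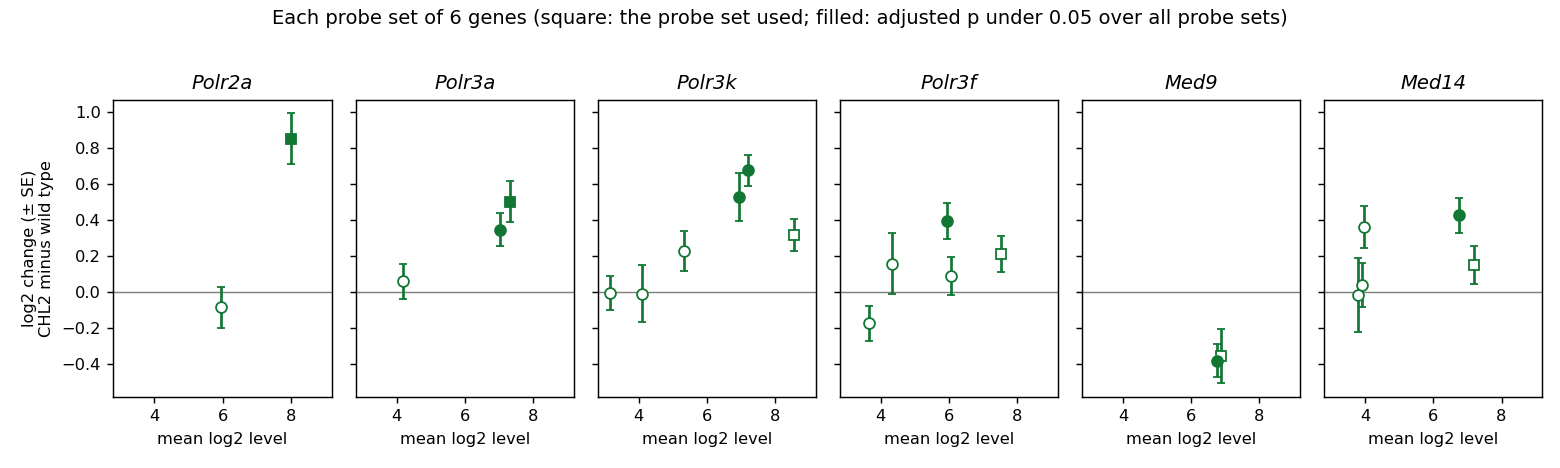
Log2 change with its SE (4 mice a group) against mean log2 level for every probe set of Polr2a, Polr3a, Polr3k, Polr3f, Med9 and Med14; squares are the probe sets used for the gene and filled symbols passed an adjusted p of 0.05 over all probe sets. For Polr2a 1 of 2 probe sets rose, for Polr3k 2 dimmer sets stand above the one used, and both Med9 sets lie below 0.

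Over all 119 probe sets of the 56 genes, 10 passed when each was tested on its own, where 8.04% of all probe sets were called. They belonged to 8 genes: Polr2a, Polr2c, Polr2m, Polr3a, Polr3f, Polr3k, Med9 and Med14. Polr2b and Polr2f were not among these, at an adjusted p of 0.0512 and 0.0561 for the probe sets used. In 25 genes there was only 1 probe set, so no second reading of the transcript was had for them.

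Promoters of genes that rose are shown to give the sequence at their starts. The RefSeq promoter table (build GRCm38.p6) held 48 of the 56 members and 6 of the 7 that rose, with a window from 250 bases before to 50 bases after each start. The 150 bases before the start are printed for the genes of both large RNA polymerase II subunits, for the shared subunit gene Polr2f and for Polr3k. Both strands were searched, and capitals mark exact matches. The letters searched for the TATA box were TATAAA. Those of the CCAAT box are its name, and GGGCGG stood for the GC box. For ETS factors the core CCGGAAG was used, and for YY1 the core AAGATGGCG. The E-box was searched as CACGTG, and the cyclic AMP response element (CRE) as TGACGTCA. The palindromic NRF1 site was searched as well. No motif contains another.

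Polr2a, chr11:69758634-69758783, minus strand: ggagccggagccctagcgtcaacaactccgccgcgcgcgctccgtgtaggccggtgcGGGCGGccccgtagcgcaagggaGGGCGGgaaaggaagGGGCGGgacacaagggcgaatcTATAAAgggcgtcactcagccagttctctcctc

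Polr2b, chr5:77310334-77310483, plus strand: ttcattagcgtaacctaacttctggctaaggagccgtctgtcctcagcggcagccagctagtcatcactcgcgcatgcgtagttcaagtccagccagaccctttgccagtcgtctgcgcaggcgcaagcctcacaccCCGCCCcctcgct

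Polr2f, chr15:79141175-79141324, plus strand: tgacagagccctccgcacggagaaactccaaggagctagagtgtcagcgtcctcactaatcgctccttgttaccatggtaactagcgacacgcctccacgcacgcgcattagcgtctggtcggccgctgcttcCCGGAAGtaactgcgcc

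Polr3k, chr2:181864210-181864359, plus strand: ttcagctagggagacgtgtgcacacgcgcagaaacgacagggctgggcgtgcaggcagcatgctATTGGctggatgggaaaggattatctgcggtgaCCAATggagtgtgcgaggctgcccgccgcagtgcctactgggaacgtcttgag

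The Polr2a stretch held 3 GC boxes followed by a TATA box, that of Polr2b 1 GC box, that of Polr2f 1 ETS core and that of Polr3k 2 CCAAT boxes, 1 on each strand. In the full windows no motif was found in more than 3 of the 6 genes: the GC box was found in Polr2a, Polr2b and Polr2m, CCAAT in Polr2c, Polr2m and Polr3k, the ETS core in Polr2c and Polr2f, and TATAAA in Polr2a and Polr2c. Over the 48 members, 64.6% had a GC box, 31.2% an ETS core, 35.4% a CCAAT box and 10.4% TATAAA, beside 38.2%, 9.93%, 41.1% and 15.7% of 27025 genes in the table. An E-box was found in 14.6% and a CRE in 2.1% of members, beside 8.09% and 2.03% of all genes. The YY1 and NRF1 letters were found in 0 members, beside 1.64% and 1.07% of all genes. These are matches of letters, and nothing was measured here about binding.

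Mediator subunit genes gave 0 calls among 30, beside 12.4% of all genes and 19.8% of those at or above the median level. At an unadjusted p under 0.05 in limma 7 were higher and 1 lower, 8 of the 30. Of all 18193 genes 2548 were higher and 2155 lower at that p, 25.9% in either direction. For 9 of the 30 (30.0%) every mutant lay above every control. This was so for 11.4% of all genes, and 33.1% of genes at or above the median level had no overlap in either direction. The change was above 0 for 22 of the 30 Mediator genes, with a median of 0.14.

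The middle of Mediator, which links head and tail, held the members with the lowest p. Med19 was 7.87, 7.58, 7.83 and 7.82 in wild-type 161, 170, 180 and 200 and 8.04, 7.88, 8.20 and 8.31 in mutants 141, 153, 154 and 191, a change of 0.37 (SE 0.12, adjusted p = 0.0805). The second Med19 probe set, at a mean of 6.65, had a change of 0.034 (adjusted p = 0.926 over all probe sets). Med21 lay between 7.22 and 7.50 in the controls and 7.57 and 7.76 in the mutants (change 0.29, SE 0.098, adjusted p = 0.0836). Med31 lay between 8.33 and 8.56 in the controls and 8.61 and 8.83 in the mutants (change 0.28, SE 0.10, adjusted p = 0.0983). None of these 3 groups of values overlapped, and all 3 genes passed when genes below the median level were left out, a test over fewer genes. Med1, the subunit that nuclear receptors contact, was 8.33, 7.73, 8.49 and 8.51 in the controls and 8.26, 8.25, 8.47 and 8.57 in the mutants. Its low value was that of wild-type 170, and its change was 0.16 (SE 0.19, adjusted p = 0.670). The next brightest Med1 probe set, at a mean of 8.10, had a change of -0.16 (SE 0.12, adjusted p = 0.551 over all probe sets). Med4, Med7, Med10 and Med26 had changes of 0.042 to 0.14.

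Med9, a small subunit of the middle, was the member with the lowest change. It was 7.12, 6.65, 7.12 and 7.29 in wild-type 161, 170, 180 and 200 and 6.69, 6.61, 6.62 and 6.79 in mutants 141, 153, 154 and 191. Wild-type 170 alone lay among the mutants, and the change was -0.36 (SE 0.15, adjusted p = 0.151). Without 170 it was -0.45 and passed (adjusted p = 0.0101). The second probe set for Med9 had a change of -0.38 (SE 0.090) and passed among all probe sets (adjusted p = 0.0302), as did the mean of both (change -0.37, adjusted p = 0.0300). Med9os lay between 3.35 and 3.84 in all 8 mice, under log2 of 32, so it rests on signal near background (change -0.17, adjusted p = 0.231).

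In the head, which binds RNA polymerase II, 0 of 7 genes passed, beside 12.4% of all genes. At an unadjusted p under 0.05 in limma there were 2, beside 25.9% of all genes. Med8 was 8.47 to 8.58 in the controls and 8.60 to 8.77 in the mutants (change 0.21, SE 0.079, adjusted p = 0.117), and Med11 was 6.58 to 6.77 and 6.80 to 7.07 (change 0.24, SE 0.094, adjusted p = 0.141). Neither gene's groups overlapped. Med20 had a change of 0.35 (SE 0.16, adjusted p = 0.200) with mutants between 7.47 and 8.33, and Med6, Med17, Med18 and Med22 had changes of -0.021 to 0.22.

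The tail and the backbone subunit Med14, which holds the modules together, gave 0 calls among 10 genes, beside 12.4% of all genes. At an unadjusted p under 0.05 in limma there was 1 (Med28), beside 25.9% of all genes. Med14 was 6.93 to 7.27 in the controls and 7.20 to 7.35 in the mutants (change 0.15, SE 0.10, adjusted p = 0.401). A second Med14 probe set, at a mean of 6.75, passed among all probe sets (change 0.43, SE 0.097, adjusted p = 0.0259). Med15, a target of many activators, was 7.75 to 7.94 in the controls and 7.84 to 8.24 in the mutants (change 0.15, SE 0.099, adjusted p = 0.404). Med23, which receives Ras-pathway signals through the factor Elk1, was 7.74 to 8.08 in the controls and 7.77 to 8.12 in the mutants (change 0.19, SE 0.11, adjusted p = 0.293). The other 7, Med16, Med24, Med25, Med27, Med28, Med29 and Med30, had changes of -0.056 to 0.23.

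In the kinase module the scaffold genes did not pass, while those of its cyclin and of 1 kinase did, in opposite directions. Ccnc, which encodes cyclin C, was 6.10, 6.35, 6.24 and 6.17 in wild-type 161, 170, 180 and 200 and 6.80, 6.80, 6.90 and 6.86 in mutants 141, 153, 154 and 191. The mutants stood well above the controls, and the change was 0.67 (SE 0.084, 1.59-fold, adjusted p = 0.000682). The other 4 probe sets for Ccnc, at means of 3.40 to 5.26, had changes of -0.12 to 0.021, and on the mean of all 5 the call was lost (change 0.11, adjusted p = 0.396). Cdk19, the kinase that can take the place of Cdk8, was 10.15, 10.29, 10.34 and 10.25 in the controls and 9.68, 9.67, 9.78 and 9.81 in the mutants. It fell by 0.47 (SE 0.078, adjusted p = 0.00362), or by 0.44 without mutant 191, where it did not pass (adjusted p = 0.0727). Cdk8 was 8.26 to 8.49 in the controls and 7.94 to 8.17 in the mutants, without overlap, at a change of -0.30 (SE 0.095, adjusted p = 0.0699, or 0.0228 without sex in the fit).

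Med12, the activator of the kinase, was 7.51, 7.03, 7.27 and 7.45 in wild-type 161, 170, 180 and 200 and 7.95, 7.98, 7.64 and 7.51 in mutants 141, 153, 154 and 191. The male mutant and the female control met at the same value to 2 decimals. The change was 0.30 (SE 0.13, adjusted p = 0.156), and 0.46 without sex in the fit, where it passed (adjusted p = 0.0375). Its paralogue Med12l was 8.34 to 8.46 in the controls and 8.28 to 8.41 in the mutants (change -0.036, SE 0.080, adjusted p = 0.839). Med13, which tethers the module to Mediator, was 8.76 to 8.83 in the controls and 8.84 to 9.02 in the mutants (change 0.099, SE 0.081, adjusted p = 0.513). Med13l was 10.30 to 10.48 in the controls and 9.94 to 10.33 in the mutants (change -0.19, SE 0.097, adjusted p = 0.248), with mutant 191 the highest of its group. Differences between paralogues were not tested.

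**Figure D4:**
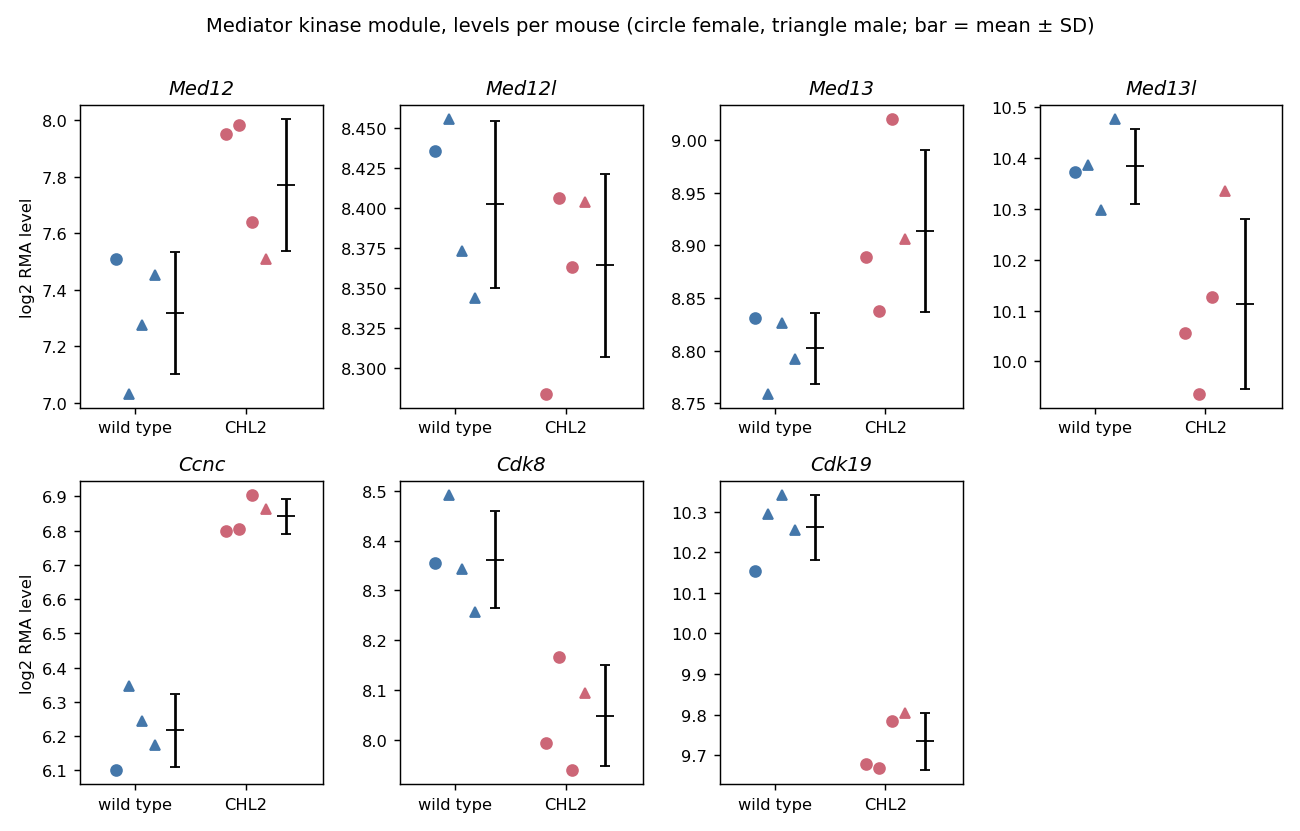
Log2 RMA level of the 7 genes of the Mediator kinase module in each mouse, wild type in blue and CHL2 mutant in red, circles for females and triangles for males, with the group mean and SD (n = 4); each panel has its own axis. Ccnc is higher and Cdk19 and Cdk8 are lower in every mutant than in every control, while the groups overlap for Med12l and Med13l.

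The other genes of these pathways came from lists of factors that work with the polymerases and of subunits under other symbols. They gave 14 calls among 125 measured genes (11.2%), 12 higher and 2 lower. Calls were made for 12.4% of all genes and 19.8% of those at or above the median level, so this share was not above the background. Of 31 general factors of RNA polymerase II, which place it at the start site, 4 rose and 0 fell. Ercc3, the DNA translocase of TFIIH, was 7.65 ± 0.080 (SD, n = 4) in wild-type and 8.36 ± 0.057 in mutant mice (change 0.73, SE 0.084, adjusted p = 0.000392). Taf4b, a TFIID subunit, had a change of 0.59 (SE 0.081, adjusted p = 0.00118) and a second probe set at 0.60 (adjusted p = 0.00934). Gtf2b, which encodes TFIIB, and Taf1, the largest TFIID subunit, had changes of 0.45 and 0.46 (SE 0.089 and 0.11, adjusted p = 0.00825 and 0.0174). Neither passed without mouse 161, where the changes were 0.50 and 0.58, or without mouse 191, where they were 0.41 and 0.34.

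Of 32 genes of pausing and elongation, 4 rose and 0 fell, where 12.4% of all genes were called. Cdc73, a subunit of the PAF1 complex, had a change of 0.64 (SE 0.087, adjusted p = 0.00115) but of 0.12 when its 7 probe sets were averaged (adjusted p = 0.324). Nelfb, a subunit of the pausing factor NELF, had a change of 0.60 (SE 0.086, adjusted p = 0.00154). Cdk12, a kinase of the polymerase tail, and Ctr9, of the PAF1 complex, had changes of 0.38 and 0.27 (SE 0.11 and 0.077, adjusted p = 0.0435 and 0.0477), and lost their calls in 13 and 12 of 19 alternatives. Of 27 genes of Integrator, tail phosphatases and polymerase assembly, Ints8 and Ints12 rose, by 0.53 and 0.47 (SE 0.12 and 0.10, adjusted p = 0.0147 for each), and 0 fell. Neither passed without mouse 161, where the changes were 0.65 and 0.43, or without mouse 191, where they were 0.41 and 0.50.

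Among factors and otherwise named subunits of RNA polymerase I 1 of 10 genes passed. Among those of RNA polymerase III it was 1 of 17, where 12.4% of all genes were called. The otherwise named subunits were Znrd1, Cd3eap and Twistnb of RNA polymerase I and Crcp of RNA polymerase III. Their changes were -0.20 to 0.037, none past the threshold. Taf1c, a subunit of the selectivity factor of RNA polymerase I, fell by 0.48 (SE 0.097, adjusted p = 0.00889), and lost its call without sex in the fit (change -0.31), without mouse 161 (-0.53) and without mouse 191 (-0.44). Gtf3c4, a subunit of TFIIIC, had a change of 0.42 (SE 0.10, adjusted p = 0.0236), while its dimmer probe set had one of -0.35 (adjusted p = 0.0591) and the mean of both one of 0.031 (adjusted p = 0.867). The Gtf3c4 call was lost in 5 of 19 alternatives: with that mean, with a floor at log2 of 32, and without mouse 161, 180 or 191, where the changes were 0.32, 0.40 and 0.52. Of 5 genes of mitochondrial transcription, 0 passed and 1 had an unadjusted p under 0.05 in limma.

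Recorded sex made no call among the 56 genes: 0 passed for the difference of females and males (0.0275% of all genes did) and 5 had an unadjusted p under 0.05 in limma, beside 10.6% of all genes. For the interaction of genotype and sex 0 passed (0.00550% of all genes) and 4 had an unadjusted p under 0.05, Polr2a, Med20, Med29 and Med30, beside 5.04% of all genes. With 1 mouse in 2 of the 4 combinations of genotype and sex, these tests rest on few animals.

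**Figure D5:**
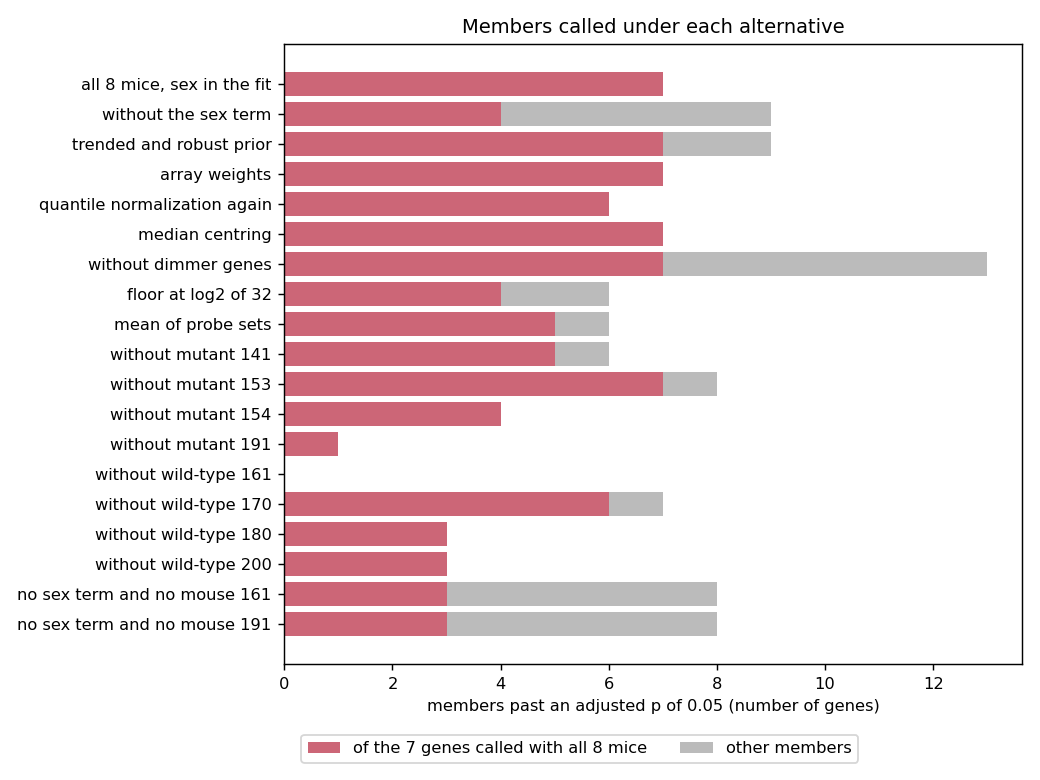
Number of the 56 genes past an adjusted p of 0.05 with all 8 mice and under each alternative, in red those among the 7 called with all 8 mice and in grey other members. The count lies between 0 without wild-type 161 and 13 without genes below the median level, and the 7 genes are all kept without mutant 153, with array weights, with median centring, with a trended prior and without dimmer genes.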

How the data were processed

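Striatal RNA of 8 mice was hybridised to Affymetrix mouse expression arrays, 1 per mouse. The deposited values are log2 levels per probe set, which per the submitters' processing notes the authors made with RMA and the affy package. RMA subtracts background, gives all arrays 1 distribution and compresses changes of dim genes. The sources used here give neither versions nor a genome build. Of 45101 probe sets 64 controls were left out, and 34945 are assigned to 1 gene alone by the platform annotation. Each symbol kept its probe set with the highest mean, which gave 18193 genes. All 56 members were found in the RefSeq gene table. limma 3.58.1 in R 4.3.3 (lmFit and eBayes, checked on simulated data) was fitted to all genes with genotype and recorded sex as terms. The labels name separate mice, and no number is shared between groups. Alternatives are listed in the closing section. The members, the lists and the tests were chosen with earlier results of these data known. All members are named; those past the threshold, the catalytic subunits, Med1, Med12 to Med15, Med23 and the paralogue pairs have full statistics, and up to 4 called genes of each list have the change, SE and adjusted p. Med9, Med19, Med21, Med31, Polr2h, Polr3f, Med8, Med11 and Med20 were added after their values were seen.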

Additional observations from a re-analysis of the deposited data

Results flagged for a closer look

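Each member was looked at in both groups of 4 mice, 112 groups in all, for a mouse far from the other 3, and 2 were found, where chance flags about 1 in 20 groups. Med17, a head subunit of Mediator, was 7.92 in mutant 154 and 7.76 to 7.78 in the other mutants. Med23, a tail subunit, was 8.08 in wild-type 200 and 7.74 to 7.78 in the other wild-type mice. Neither gene passed the test of genotype.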

How the results depend on the processing

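The number of members past the threshold was 7, all higher in the mutants. It was 13, all higher, without dimmer genes, a test over fewer genes, and 11, all higher, at an adjusted p under 0.1. With 1 mouse left out it was between 0 and 8, of which 0 to 8 were higher and 0 to 1 lower. Lower members numbered 1 on the mean of probe sets, 1 with every probe set on its own and 2 without mouse 191 and the sex term (Med13l and Med9os); the cause was not tested. The pathway count of 14 was 9 with a floor at log2 of 32 and between 5 and 16 with 1 mouse left out. Under the other alternatives (no sex term, trended and robust prior, array weights, quantile normalization again, median centring, the floor, the mean of probe sets) the member count was 6 to 9, and the number of members with a change above 0 was 44 to 46; without 1 mouse it was 39 to 47. Member and pathway genes tested in every alternative kept their direction where called in either fit. The overlap of groups without wild-type 170 and the alternatives to the count above 0 were added after seeing the data. No paired analysis was possible because the groups share no mouse number. With 4 mice a group small changes cannot be told from 0, and signal near background limits Med9os. Of the 8 values 4 also lay under log2 of 32 for Polr1e and 1 for Polr3g.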
